A study of Mus musculus with 7 samples.

Results

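The 48 genes described here encode nucleolar factors of ribosome assembly, from RNA polymerase I to the proteins that finish each subunit. They were taken by symbol, in GENCODE vM21, from a table of 48795 mouse gene identifiers, and all 48 were present and passed the filter on low counts that left 11618 genes for testing. Ribosomes are built in the nucleolus, where RNA polymerase I makes a long precursor of ribosomal RNA that small nucleolar ribonucleoproteins (snoRNPs) modify and that separate sets of factors cut, fold and load with ribosomal proteins into the small and the large subunit. Many of these genes are known direct targets of MYC, and germinal centre B cells that receive T cell help switch MYC on for a short time before they divide. MIZ1, encoded by Zbtb17, is a zinc finger transcription factor that activates its own targets and forms repressive complexes with MYC.

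RNA was sequenced in bulk from the light zone B cells of mouse germinal centres, which test their antigen receptor and meet T cell help, taken from spleens 10 days after intravenous injection of sheep red blood cells. By the labels, 3 libraries have the genotype MIZ1KO and titles with MizFF, 4 have the genotype Control and titles with eYFP, and all 7 share the immunisation. The labels used here name no driver of the deletion, no strain and no age. They do not tie a library to a separate animal either, and the p-values thus describe only how far these libraries scatter, part of which may be technical.

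Libraries held 6896643 to 9482418 counts, of which 3087979 to 5084984 lay outside ribosomal RNA, and each member rested on at least 23 counts in every library, with 6948 at most. Levels are given as CPM, counts relative to the library total after TMM scaling, a correction for library composition, and ribosomal RNA is part of that total. Known B cell markers were present (Cd79a at 306 to 757 CPM), and so was the light zone marker Cd83 (226 to 381 CPM). The summed level of 8 B cell markers ran from 3963 to 4131 CPM in MIZ1KO and from 3215 to 3802 in Control, and that of 7 dark zone markers from 395 to 447 and from 377 to 387, while the 7 light zone markers overlapped (637 to 754 and 621 to 912), although Cd86 among them lay lower in all MIZ1KO libraries (102 to 148 CPM against 163 to 196). The 8 germinal centre markers ran the other way, at 979 to 1087 CPM in MIZ1KO and 1078 to 1338 in Control, and 1 of them, Rgs13, was called lower (-1.32 ± 0.32, adjusted p = 0.0230, edgeR). Of the 8 B cell markers 1 and of the 7 dark zone markers 2 were called higher in MIZ1KO, beside 1.9% of all genes (edgeR, adjusted p under 0.05). Of the light zone markers 0 were called in either direction. The 8 T cell markers summed to 43.2 to 51.9 CPM in MIZ1KO and 26.2 to 32.7 in Control. Lck carried most of this level, at a mean of 35.5 CPM in MIZ1KO and 29.5 in Control (adjusted p = 0.491, edgeR). It did not carry all of the difference, as Cd3e averaged 4.03 CPM in MIZ1KO and 0.14 in Control, and Trbc2 3.08 and 0.10. Of the defining genes of T cells, Cd3g was at 0 in all Control libraries and also in MIZ1KO replicate 1. Trbc2 passed as higher in MIZ1KO (adjusted p = 0.0190, edgeR), and Cd3e reached 8.35 CPM in MIZ1KO replicate 3 and 0.4 at most in Control. The groups overlapped for Cd3g, Cd3d, Cd4, Cd8a and Lck, while Trbc2, Cd3e and Trac lay higher in all MIZ1KO libraries. Gene models of the GENCODE class TEC, regions whose transcription awaits experimental proof, took 0.544% to 0.923% of counts (ribosomal RNA left out) in MIZ1KO and 1.02% to 2.58% in Control. Malat1, a long RNA kept in the nucleus, took 0.256% to 0.490% and 0.687% to 1.52%, likewise without overlap. The part of these markers and of the T cell RNA in the results below was not tested; that of the TEC share was looked at with a covariate, given beside the results.

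No member passed the test between genotypes, while most lay somewhat higher in the MIZ1KO libraries. Of the 48 members, 0 were higher and 0 lower in MIZ1KO at an adjusted p under 0.05 by the quasi-likelihood test of edgeR, beside 1.9% higher and 4.05% lower of all 11618 genes and 2.08% and 2.06% of 9812 protein-coding genes. At an unadjusted p under 0.05, 16 members (33.3%) were higher and 0 lower, beside 9.92% and 14.7% of all genes. The log2 fold change, MIZ1KO over Control throughout, lay above 0 for 40 members (83.3%), beside 47.7% of all genes and 52.5% of protein-coding genes. Its median was 0.34 over the members, -0.03 over all genes and 0.03 over the protein-coding genes. All 3 MIZ1KO libraries lay above all 4 Control libraries for 11 members (22.9%, beside 8.74% of all genes and 9.89% of protein-coding genes) and below them for 0 (beside 10.8% and 7.93%). In bulk RNA a change in the share of cells that express a gene and a change in RNA per cell cannot be told apart.

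**Figure D1:**
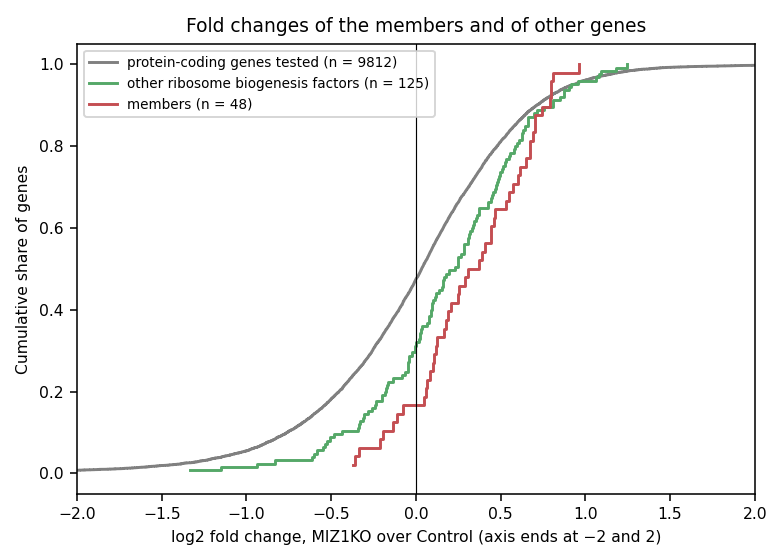
Cumulative share of genes (y axis) against the log2 fold change of MIZ1KO over Control (x axis) for the 48 members, 125 other ribosome biogenesis factors and 9812 protein-coding genes. The curve of the members lies to the right of that of the protein-coding genes, with medians of 0.34 and 0.03, and no member reached a log2 fold change of 1.

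The absence of calls depended on the tool and on single libraries. DESeq2 called 3 members, Ddx18, Ddx21 and Fbl, all higher (beside 3.64% of all genes called higher), the same 3 passed in edgeR when ribosomal RNA genes were left out (beside 2.56%), and limma-voom called 0 (beside 1.09%). Without Control replicate 1, 6 members were called higher (beside 4.59% of all genes): Ddx18, Fbl, Gar1, Nhp2, Pa2g4 and Wdr74. Without MIZ1KO replicate 2, 4 were (beside 2.49%): Ddx18, Ddx21, Nolc1 and Rrp1. Without any one of the other 5 libraries 0 were called. The count of members above 0 stayed between 38 and 41 whichever library was left out, and their median between 0.28 and 0.44.

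With the TEC share of each library as a covariate the members spread to both sides of 0. Their median log2 fold change was then -0.02, 24 of 48 lay above 0, Utp20 was called higher and Nop10 lower, beside 0.405% and 2.14% of all genes. The value turned below 0 for 16 members, among them Nop16 (-1.14), Mrto4 (-0.99), Npm1 (-0.64), Nhp2 and Pa2g4 (both -0.21) and Wdr74 (-0.16), and above 0 for none. It was greater than without the covariate for 12 members, among them Utp20 (1.65), Polr1b (1.49), Nat10 (1.35), Nolc1 (1.007), Nop14 (0.92) and Rrp1 (0.85). Fbl and Gar1 kept a positive but smaller value (0.16 and 0.18), and so did Bop1 (0.40). Since the TEC shares of the groups did not overlap, the genotype and the TEC share cannot be told apart in this fit. Averaged over the 48 members with equal weight, the log2 level relative to the Control mean was 0.38, 0.18 and 0.34 in MIZ1KO replicates 1 to 3 and 0.15, 0.05, -0.31 and -0.07 in Control replicates 1 to 4. Among the 4 Control libraries the order of this level was the reverse of the order of their TEC shares (1.02%, 1.62%, 2.58% and 1.95%). Among the 3 MIZ1KO libraries it was not, as replicate 3 had the highest TEC share of the 3 (0.923%) and a level close to that of replicate 1 (TEC share 0.544%).

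**Figure D2:**
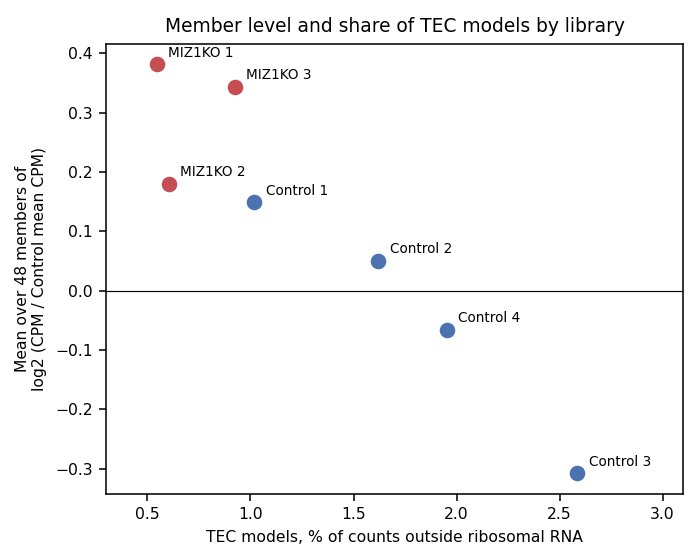
Mean over the 48 members of log2 CPM relative to the Control mean (y axis) against the share of TEC models in the counts outside ribosomal RNA in % (x axis), with 1 point for each library. The 3 MIZ1KO points lie at the upper left, and Control replicate 3, with the highest TEC share (2.58%), lies lowest.

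Control replicate 3 was the lowest of the 7 libraries for 24 of the 48 members, and 9 members lay above the Control mean in it. In MIZ1KO replicates 1 to 3 it was 41, 34 and 36 members. MIZ1KO replicate 2 was the lowest of its group for 27 members. Summed over the members, CPM was 3196, 2979 and 3135 in MIZ1KO replicates 1 to 3 and 3020, 2855, 2111 and 2468 in Control replicates 1 to 4. The sum was thus higher in MIZ1KO on average (3103 ± 112, SD, n = 3, against 2613 ± 407, SD, n = 4), with an overlap between MIZ1KO replicate 2 and Control replicate 1. Ncl and Npm1 made up much of it, and without them the sums were 1672 to 1776 in MIZ1KO and 1183 to 1641 in Control, which did not overlap. The sum over all 48 members was also taken as a share of counts outside ribosomal RNA. That share was 0.588% to 0.657% in MIZ1KO and 0.472% to 0.564% in Control, without overlap.

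**Figure D3:**
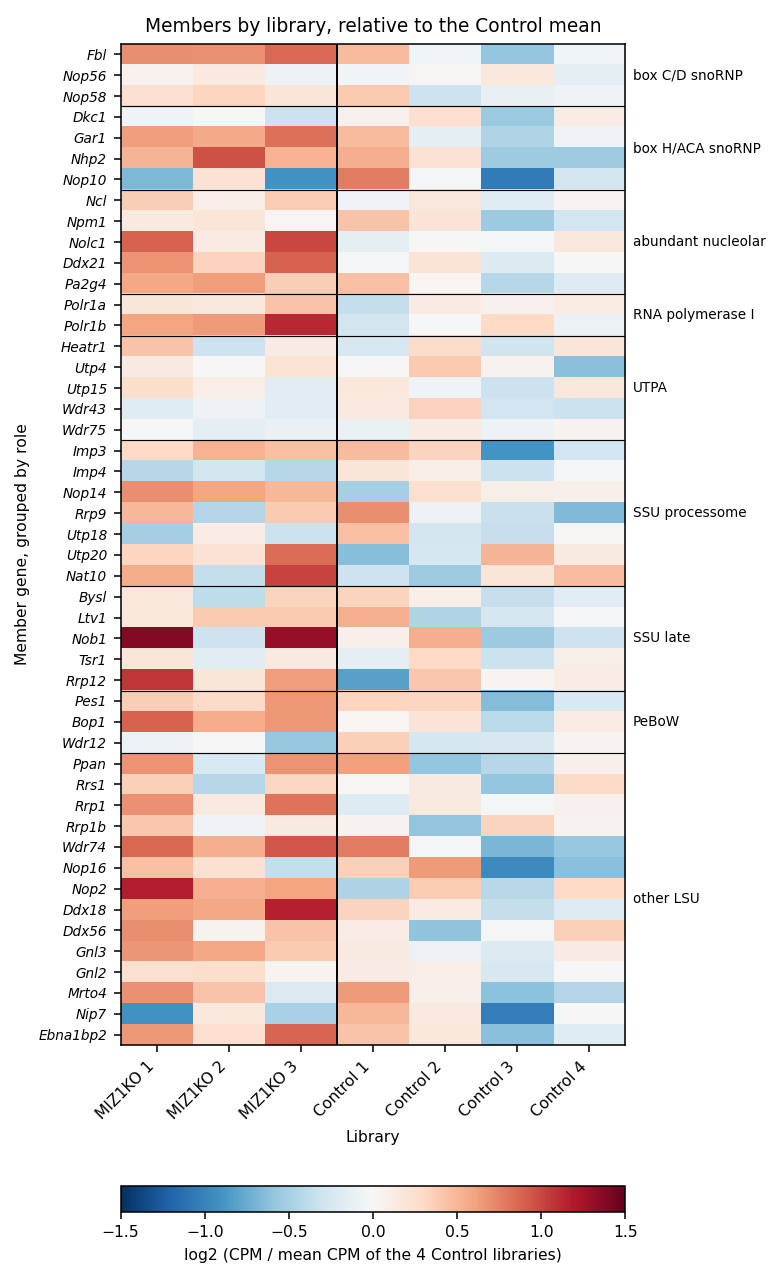
Heat map of log2 CPM relative to the mean of the 4 Control libraries, with the 48 members in rows, grouped by role, and the 7 libraries in columns. Red is higher and blue lower than the Control mean, and Control replicate 3, the lowest of the 7 libraries for 24 members, is the column with the most blue.

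Levels were also divided by the annotated exon length of each gene, which need not be the length of the transcripts present. The order of different genes on this scale thus depends on the annotation. Ncl and Npm1 had nearly equal means of 631.8 and 631.4 CPM over the 7 libraries, but 10188 and 2665 bases of exon. Per kilobase of exon, Npm1 was the most abundant member at 236.9 CPM per kb over the 7 libraries. Nop10 and Ncl came next at 63.9 and 62.0, in an order that differed between the groups: Ncl stood at 69.2 and Nop10 at 54.7 in MIZ1KO, and Ncl at 56.6 and Nop10 at 70.7 in Control. They were followed by Pa2g4 (34.6), Nhp2 (29.6) and Nop56 (27.2). The median member stood at 7.03, and Nob1, Polr1b and Rrp9 were the least abundant (1.86, 1.77 and 1.38 CPM per kb). Members below the median level in CPM had a median log2 fold change of 0.40 and those at or above it 0.25, a difference that was not tested.

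RNA polymerase I, whose 2 large subunits form the active centre, was measured through Polr1a and Polr1b. Polr1b, the smaller of these catalytic subunits, measured 11.7, 12.1 and 17.0 CPM in MIZ1KO replicates 1 to 3 and 6.41, 7.76, 9.56 and 7.30 CPM in Control replicates 1 to 4. All MIZ1KO libraries were above all Control libraries, with a log2 fold change of 0.79 ± 0.33 (SE) that did not pass (adjusted p = 0.144, edgeR). Polr1a, the largest subunit, was at 49.97, 49.5 and 59.4 CPM in MIZ1KO and at 34.4, 48.3, 46.1 and 47.9 CPM in Control. Here the groups lay apart by a narrow gap, with Control replicate 1 standing well below the other Control libraries, and the log2 fold change was 0.26 ± 0.21 (adjusted p = 0.483, edgeR). Of 13 other genes of polymerase I transcription, among them Ubtf and the TAF1 subunits, 0 passed in either direction (edgeR), beside the 1.9% and 4.05% of all genes given above. At an unadjusted p under 0.05, 1 was higher (7.69%, beside 9.92% of all genes), and the median log2 fold change was -0.01.

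Box C/D snoRNPs place methyl groups on ribosomal RNA, and Fbl (fibrillarin) is their methyltransferase. Fbl measured 100.1, 98.7 and 111 CPM in MIZ1KO replicates 1 to 3 and 85.5, 60.1, 41.1 and 59.8 CPM in Control replicates 1 to 4. The groups did not overlap, Control replicate 1 came closest, and the log2 fold change of 0.74 ± 0.22 missed the threshold (adjusted p = 0.0568, edgeR). It was called in 5 of 17 alternatives, among them DESeq2 and the fit without Control replicate 1, and its log2 fold change ran from 0.16, with the TEC share, to 0.94. Nop56 and Nop58 are the core proteins that join Fbl in the same particle, and no test compared them with Fbl. Nop56 was at 115, 122 and 104 CPM in MIZ1KO and 107, 111, 122 and 99.7 CPM in Control, fully overlapping, with a log2 fold change of 0.05 ± 0.19 (adjusted p = 0.905, edgeR). Nop58 was at 86.97, 91.8 and 83.3 CPM in MIZ1KO and 96.6, 59.3, 67.97 and 70.2 CPM in Control, so that the MIZ1KO libraries lay above 3 of the 4 Control libraries (0.25 ± 0.20, adjusted p = 0.487, edgeR).

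Box H/ACA snoRNPs convert uridines of ribosomal RNA to pseudouridine, with Dkc1 (dyskerin) as the enzyme and Gar1, Nhp2 and Nop10 as its partners. Gar1 measured 31.1, 29.8 and 35.6 CPM in MIZ1KO replicates 1 to 3 and 28.0, 18.3, 14.7 and 19.4 CPM in Control replicates 1 to 4, without overlap, a log2 fold change of 0.67 ± 0.26 (adjusted p = 0.116, edgeR). Nhp2 was at 38.6, 52.2 and 38.7 CPM against 39.3, 31.5, 18.6 and 18.7 CPM, where Control replicate 1 reached into the MIZ1KO range (0.69 ± 0.27, adjusted p = 0.130, edgeR). Dkc1 itself overlapped, at 65.4, 67.6 and 54.3 CPM in MIZ1KO and 70.4, 80.6, 46.1 and 73.2 CPM in Control (-0.11 ± 0.22, adjusted p = 0.805, edgeR). Nop10, the smallest partner, was the most variable of the 4: 49.0, 91.2 and 41.9 CPM in MIZ1KO, and 133.9, 77.3, 37.8 and 64.5 CPM in Control. Its log2 fold change of -0.36 ± 0.33 (adjusted p = 0.548, edgeR) changed sign, to 0.03, without Control replicate 1, and was the one called lower when the TEC share was a covariate, at -1.86.

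**Figure D4:**
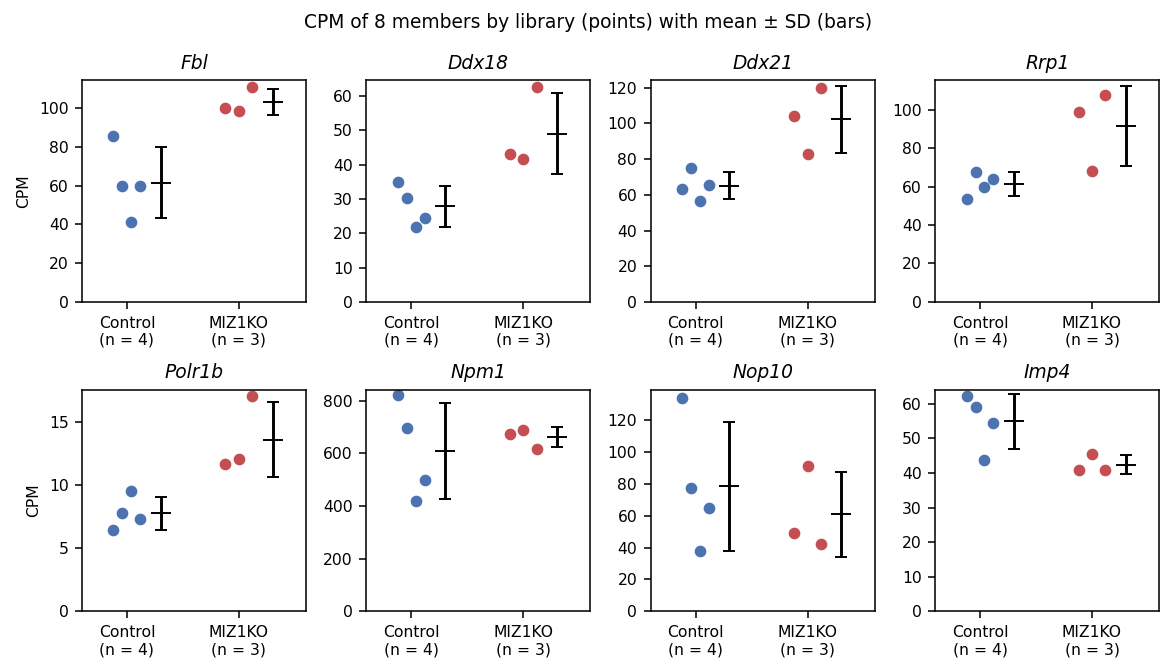
CPM (y axis, from 0) of 8 members in each library, with Control and MIZ1KO on the x axis, points for libraries and bars for the mean ± SD (n = 4 and n = 3). Fbl, Ddx18, Ddx21, Rrp1 and Polr1b show no overlap between the groups, whereas Npm1, Nop10 and Imp4 overlap.

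The abundant nucleolar proteins take part in several steps. Ddx21, an RNA helicase of polymerase I transcription and snoRNA release, measured 104, 82.8 and 120 CPM in MIZ1KO replicates 1 to 3 and 63.5, 74.8, 56.6 and 65.2 CPM in Control replicates 1 to 4. The groups did not overlap and the log2 fold change was 0.65 ± 0.20 (adjusted p = 0.0608, edgeR). Nolc1, a chaperone of snoRNPs, was high in 2 MIZ1KO libraries, at 44.4 and 48.2 CPM in replicates 1 and 3, while replicate 2 (26.2 CPM) lay within the Control values of 21.9, 23.9, 23.6 and 27.0 CPM. Its log2 fold change was 0.70 ± 0.25 (adjusted p = 0.0920, edgeR) and was called without MIZ1KO replicate 2. Pa2g4, a growth-regulated RNA-binding protein of preribosomes, was at 122, 126 and 105 CPM in MIZ1KO and 112, 83.0, 60.5 and 71.2 CPM in Control, overlapping through Control replicate 1 (0.53 ± 0.22, adjusted p = 0.140, edgeR).

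Nucleolin and nucleophosmin, the best known proteins of the nucleolus, differed little. Ncl measured 745, 617 and 753 CPM in MIZ1KO and 557, 649, 509 and 593 CPM in Control, with an overlap between MIZ1KO replicate 2 and Control replicate 2 (log2 fold change 0.29 ± 0.22, adjusted p = 0.455, edgeR). Npm1 was at 675, 690 and 618 CPM in MIZ1KO, inside the wide Control range of 821, 697, 419 and 499 CPM (0.12 ± 0.26, adjusted p = 0.825, edgeR).

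The small subunit is begun by the small subunit processome, the particle that folds the front part of the precursor. Its UTPA subcomplex, which joins the precursor first, was close to level in the groups: Heatr1, Utp4, Utp15, Wdr43 and Wdr75 had log2 fold changes from -0.14 to 0.12, with a median of 0.08, and none had an unadjusted p under 0.05. Among 7 other processome factors the median was 0.44 and the range -0.37 to 0.60. Nop14, which links the processome's parts, measured 28.3, 26.3 and 24.6 CPM in MIZ1KO replicates 1 to 3 and 12.3, 20.5, 18.5 and 18.4 CPM in Control replicates 1 to 4. The groups did not overlap (0.60 ± 0.26, adjusted p = 0.155, edgeR). Imp4, a partner of a box C/D particle needed for cutting the precursor, had the most negative value of all members. It measured 40.9, 45.5 and 40.9 CPM in MIZ1KO and 62.3, 59.0, 43.9 and 54.3 CPM in Control. The groups overlapped through Control replicate 3 (-0.37 ± 0.21, adjusted p = 0.286, edgeR). Exons of Imp4 overlap the model Gm28306, so the split of shared reads is uncertain. Utp20, a large scaffold protein, measured 0.47 ± 0.27 (adjusted p = 0.301, edgeR) and Nat10, the acetyltransferase of the small subunit RNA, 0.46 ± 0.35 (adjusted p = 0.444, edgeR).

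Late steps of the small subunit gave the largest single fold change with one of the widest errors. Nob1, the nuclease that makes the final cut of the small subunit RNA, was at 11.9, 3.69 and 11.4 CPM in MIZ1KO replicates 1 to 3 and 4.84, 6.68, 3.14 and 3.70 CPM in Control replicates 1 to 4. Replicates 1 and 3 of MIZ1KO lay above all Control libraries and replicate 2 within them, on 24 to 111 counts per library, and the log2 fold change was 0.96 ± 0.46 (adjusted p = 0.202, edgeR), or 1.44 without MIZ1KO replicate 2. Rrp12, an export factor, measured 0.67 ± 0.36 (adjusted p = 0.261, edgeR), and Ltv1, Tsr1 and Bysl lay between 0.06 and 0.31. Bysl shares exons with the model of the cyclin gene Ccnd3, which was itself higher in MIZ1KO (0.82 ± 0.20), so the split of shared reads between the pair is uncertain.

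Factors of the large subunit held 7 of the 16 members with an unadjusted p under 0.05, out of 17 members, against 2 of 17 for the small subunit, and their median log2 fold changes were 0.41 and 0.12. Of all genes, 9.92% were higher at that p. Among the other factors described below, 10 of 42 for the large subunit and 9 of 39 for the small subunit were higher at that p. There, 2 and 0 were lower, and the medians were 0.21 and 0.20. The difference between the large and small subunit sets was not tested. Ddx18, an RNA helicase of large subunit assembly, had the smallest p of all members: 43.0, 41.7 and 62.6 CPM in MIZ1KO replicates 1 to 3 and 35.1, 30.3, 21.9 and 24.4 CPM in Control replicates 1 to 4. Without overlap, its log2 fold change was 0.81 ± 0.24 (adjusted p = 0.0540, edgeR), and it was called in 4 of 17 alternatives. Rrp1, a scaffold of early large subunit particles, measured 98.8, 67.9 and 108 CPM in MIZ1KO and 53.5, 67.8, 60.0 and 64.1 CPM in Control. The lowest MIZ1KO value, in replicate 2, only just cleared the highest Control value (0.57 ± 0.21, adjusted p = 0.0998, edgeR).

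Nop2, the methyltransferase that marks a cytosine of the large subunit RNA and a common proliferation marker, was at 28.1, 17.9 and 18.8 CPM in MIZ1KO and 9.03, 16.1, 9.30 and 15.3 CPM in Control. These did not overlap (0.80 ± 0.30, adjusted p = 0.116, edgeR). Wdr74 and Ebna1bp2 measured 0.80 ± 0.34 and 0.61 ± 0.27, both with overlap, and Gnl3 (nucleostemin) 0.55 ± 0.24 without it, with adjusted p-values from 0.159 to 0.167 (edgeR). Nip7, a late factor, went the other way at 24.2, 50.8 and 32.6 CPM in MIZ1KO and 64.4, 50.5, 22.1 and 45.4 CPM in Control, with a wide overlap (-0.34 ± 0.31, adjusted p = 0.541, edgeR). This value was -0.07 without MIZ1KO replicate 1, -0.13 without Control replicate 1, -0.63 without MIZ1KO replicate 2 and -1.30 with the TEC share.

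The PeBoW complex, in which Pes1, Bop1 and Wdr12 act together in making the large subunit, was not uniform. Bop1 measured 22.3, 17.8 and 18.9 CPM in MIZ1KO and 12.3, 13.8, 9.17 and 13.1 CPM in Control, without overlap (0.70 ± 0.28, adjusted p = 0.129, edgeR). Pes1 was at 21.2, 20.1 and 25.8 CPM against 20.7, 20.6, 10.5 and 14.1 CPM, where Control replicates 1 and 2 reached the MIZ1KO values (0.44 ± 0.29, adjusted p = 0.358, edgeR). Wdr12 measured -0.19 ± 0.26 (adjusted p = 0.693, edgeR), and its model shares exons with that of Carf, which was itself lower in MIZ1KO (-2.35 ± 0.61, adjusted p = 0.0342, edgeR, at a mean of 1.29 CPM against 6.72 CPM). The split of reads between them is uncertain too.

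**Figure D5:**
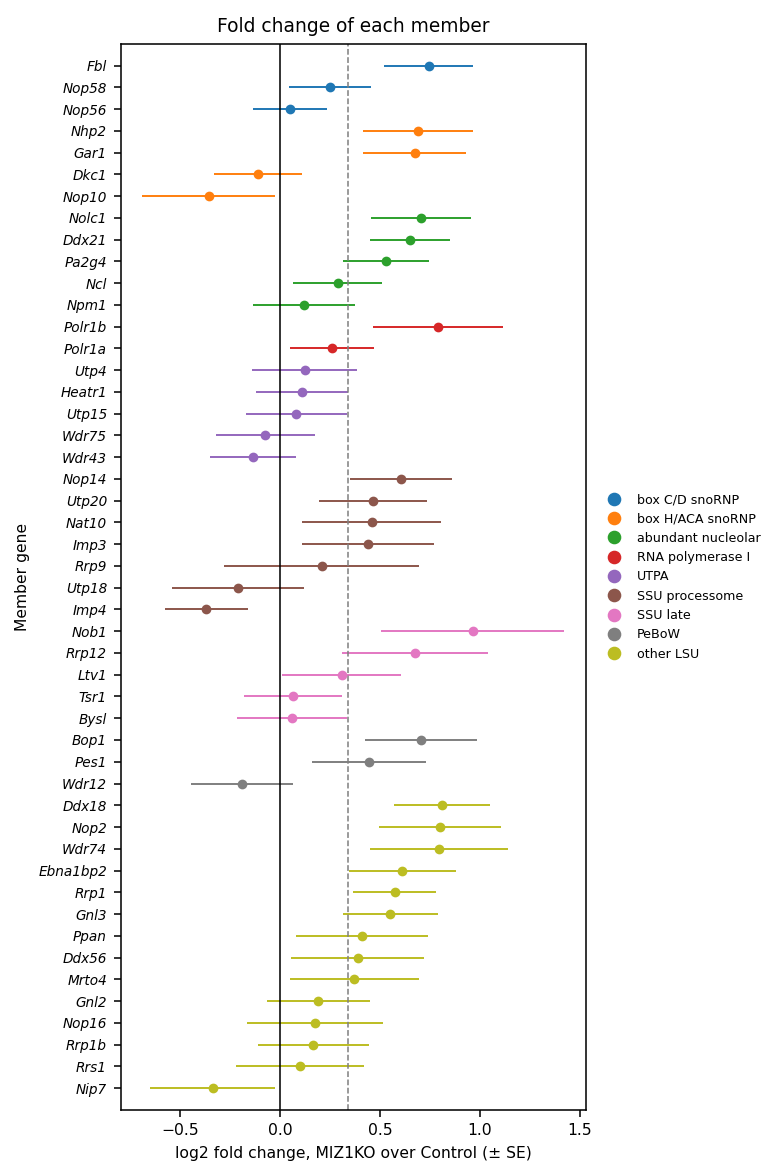
Log2 fold change of MIZ1KO over Control with its SE (x axis) for each of the 48 members (y axis), coloured by role; the dashed line is the median of the members, 0.34. UTPA members sit near 0, from -0.14 to 0.12, while 13 of 14 other large subunit factors sit above 0.

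Many MYC-bound promoters carry the E-box CACGTG, which reads the same on both strands, so the RefSeq promoters of the members (GRCm38.p6, 250 bases before to 50 after each start) were searched for it. Of 42 members with a promoter in that table, 9 held it (21.4%), beside 8.09% of all 27025 genes of the table and 12.3% of the protein-coding genes tested here. These 9 were Imp4, Ltv1, Nop2, Pes1, Tsr1, Utp18, Utp20, Utp4 and Wdr43, and their log2 fold changes ran from -0.37 to 0.80 with a median of 0.12, against 0.39 for the 33 members without it. Shown here are the 250 bases before the start, 5′ to 3′ on the coding strand with the E-box in capitals, of the 3 members whose E-box lies wholly in front of the start. Among them are the member with the lowest log2 fold change and one of the highest. A match is a description of the letters and not a bound site.
Nop2, chr6:125131633-125131882, plus strand: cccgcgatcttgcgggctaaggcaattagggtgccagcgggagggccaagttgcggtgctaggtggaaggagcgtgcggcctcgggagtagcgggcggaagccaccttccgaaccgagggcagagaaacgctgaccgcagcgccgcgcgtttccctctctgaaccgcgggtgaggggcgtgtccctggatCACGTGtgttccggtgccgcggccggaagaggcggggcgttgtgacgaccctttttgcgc
Utp18, chr11:93885767-93886016, minus strand: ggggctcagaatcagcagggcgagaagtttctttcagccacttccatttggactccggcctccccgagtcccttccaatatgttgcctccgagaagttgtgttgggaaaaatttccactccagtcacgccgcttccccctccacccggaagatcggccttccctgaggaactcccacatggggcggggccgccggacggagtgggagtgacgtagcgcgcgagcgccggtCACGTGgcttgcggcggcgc
Imp4, chr1:34439579-34439828, plus strand: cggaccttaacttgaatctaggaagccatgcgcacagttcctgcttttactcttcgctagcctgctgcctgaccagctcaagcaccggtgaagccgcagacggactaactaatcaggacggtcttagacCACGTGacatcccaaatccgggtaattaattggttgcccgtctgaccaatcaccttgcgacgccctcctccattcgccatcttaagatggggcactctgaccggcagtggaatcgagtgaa
The E-box begins 60 bases before the start in Nop2, 20 in Utp18 and 121 in Imp4. Beside these, Nop2 measured a log2 fold change of 0.80, Utp18 -0.21 and Imp4 -0.37, and none passed the test.

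Several members also overlap snoRNA genes. In GENCODE vM21, 8 members overlapped 23 snoRNA genes, among them Nop56 with 5 and Nop58 with 4. Strand and position within an intron were not checked. These 8 members had a median log2 fold change of 0.16 (6 above 0) and the other 40 members one of 0.41 (34 above 0), a difference that was not tested. Exons of 17 members overlap another gene model. Among these 17 are Imp4, Nop14, Bop1, Gnl3 and Polr1a, and the split of shared reads is uncertain for them too. The 17 members had a median log2 fold change of 0.17 (13 above 0). The 31 members without such an overlap had one of 0.44 (27 above 0), a difference that was not tested either.

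Beyond the members, 125 of 127 listed ribosome biogenesis factors could be tested, and 4 were higher and 1 lower in MIZ1KO (edgeR, adjusted p under 0.05, beside 1.9% and 4.05% of all genes). Their median log2 fold change was 0.23, with 86 above 0. Nop53, a large subunit factor, rose: it measured 167, 141 and 170 CPM in MIZ1KO replicates 1 to 3 and 105.6, 69.2, 74.1 and 79.3 CPM in Control replicates 1 to 4, a log2 fold change of 0.95 ± 0.20 (adjusted p = 0.0154, edgeR). Mybbp1a, a nucleolar partner of polymerase I, was counted here among the other large subunit factors. It rose from 66.2 ± 3.61 CPM (SD, n = 4) to 122 ± 25.01 CPM (SD, n = 3), by 0.88 ± 0.20 (adjusted p = 0.0194, edgeR). All MIZ1KO libraries lay above all Control libraries for both.

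The other 2 higher calls were in the small subunit processome: Pwp2 and Noc4l rose, by 1.25 ± 0.33 and 1.08 ± 0.29 (adjusted p = 0.0365 and 0.0395, edgeR). Pwp2 was at 14.5, 21.4 and 15.6 CPM in MIZ1KO and 4.71, 5.74, 8.51 and 9.60 CPM in Control. Rpf1, a factor of the large subunit, fell by 0.83 ± 0.24 on the log2 scale (adjusted p = 0.0479, edgeR), from 34.6 to 45.2 CPM in Control to 17.1 to 24.9 CPM in MIZ1KO. Of 17 alternatives, the call ended in 3 for Nop53 (TEC share as a covariate, without MIZ1KO replicate 1, without Control replicate 2), 5 for Mybbp1a, 7 for Pwp2, 8 for Noc4l and 15 for Rpf1. Leaving out MIZ1KO replicate 1 or Control replicate 2 ended all 5, with log2 fold changes mostly close to the first ones: without MIZ1KO replicate 1, Nop53 measured 0.97, Mybbp1a 0.82, Pwp2 1.41, Noc4l 1.10 and Rpf1 -0.63. The TEC share as a covariate also ended all 5. There Pwp2 (1.83) and Mybbp1a (1.05) measured more than before with larger errors, while Nop53 (0.65), Rpf1 (-0.61) and Noc4l (0.36) lay closer to 0. Of 14 genes of the RNA exosome, the complex that trims ribosomal RNA ends, 0 passed in either direction (edgeR), with 0 higher and 1 lower (7.14%, beside 14.7% of all genes) at an unadjusted p under 0.05.

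Myc itself overlapped between the groups, at 54.3, 37.5 and 51.7 CPM in MIZ1KO replicates 1 to 3 and 28.9, 36.9, 46.0 and 36.8 CPM in Control replicates 1 to 4 (log2 fold change 0.36 ± 0.23, adjusted p = 0.348, edgeR). Max, the partner of MYC, measured 106, 119 and 94.6 CPM in MIZ1KO and 92.7, 65.8, 78.6 and 66.8 CPM in Control, without overlap (0.49 ± 0.20, adjusted p = 0.134, edgeR). Mnt, a repressor that competes for Max, measured 0.46 ± 0.29 (adjusted p = 0.343, edgeR), and Mycn had no counts in any library. Zbtb17 was at 3.69 to 5.15 CPM in MIZ1KO and 3.14 to 7.002 CPM in Control, and since its counts cover the whole gene, including parts outside a deletion, they do not check the genotype labels.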

How the data were processed

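The authors deposited a table of expected counts, estimated reads per gene without normalization. They also deposited log2 values, which served as an alternative; how these were made is not stated in the labels. Per the submitters' processing notes, STAR 2.5.2, RSEM 1.3.0, DESeq2 1.18.1, R 3.4.3 and GRCm38 were used, with no roles given, and the strand setting is unknown here, which leaves the counts of overlapping models uncertain. Expected counts were rounded, as 6.61% of the values were not whole. Genes passing filterByExpr were scaled by TMM and tested with edgeR 4.0.16 (quasi-likelihood, robust, two-sided) under R 4.3.3, with Benjamini-Hochberg adjustment over 11618 genes. Each SE is the log2 fold change divided by the root of F. Alternatives used DESeq2 1.42.0 and limma 3.58.1. The TEC covariate is the scaled log2 share. Ribosomal RNA means the annotation's ribosomal classes and the model Gm26917.

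The members and lists were chosen with earlier results of these data known. Values in each library are given for the 12 members with the smallest p, the 3 with the lowest log2 fold change and 9 landmark genes, 22 in all. Nop58 was added to these beside Fbl and Nop56. Other factors are named where their adjusted p was under 0.05. No libraries looked like duplicates (lowest chi-square per degree of freedom 10.5). Scripts were tested on simulated data.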

Additional observations from a re-analysis of the deposited data

Results flagged for a closer look

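Of 58 gene or summed values examined in the 4 Control libraries, 2 had 1 library far from the others, where chance alone flags about 1 in 20. Polr1a was at 34.4 CPM in Control replicate 1 and at 46.1 CPM in the nearest Control library, a gap of 0.843 of the Control range. Zbtb17 was at 7.002 CPM in Control replicate 4 and at 3.42 CPM in the nearest, a gap of 0.929 of the range.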

How the results depend on the processing

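Over 11618 genes, 221 were called higher and 471 lower; DESeq2 called 423 higher, protein-coding genes alone gave 140 and 175, limma-voom 127 and 215, and the TEC share as a covariate 47 and 249. Leaving out 1 library gave 22 to 522 higher and 17 to 826 lower, so the counts of calls rest on single libraries. Of the members, 3 were called higher with DESeq2 and 3 without ribosomal RNA genes, beside 3.64% and 2.56% of all genes. On the deposited log2 values 1 was (Fbl), beside 219 of 11618 genes. With the TEC share 1 member was higher and 1 lower, beside 0.405% and 2.14% of all genes. Leaving out 1 library gave 0 to 6 members higher and 0 lower. Their median of 0.34 was -0.018 with the TEC share and 0.28 to 0.44 with 1 library left out. Of the other factors, 4 were called higher. DESeq2 gave 10 (beside 3.64% of all genes), the fit without ribosomal RNA genes 8 (beside 2.56%) and the TEC share 0 (beside 0.405%). Leaving out 1 library gave 0 to 9. For the 1 called lower, library totals, no filter, protein-coding genes alone, no ribosomal RNA genes, the legacy fit, limma-voom and the deposited log2 values gave 0, the TEC share 3, and leaving out 1 library 0 to 1. The sign of the log2 fold change turned with the TEC share for 16 members, from -1.14 to -0.043. Of those given in each library these were Nhp2 (-0.21), Nop58 (-0.17), Npm1 (-0.64), Pa2g4 (-0.21) and Pes1 (-0.043). The sign turned also without Control replicate 1 for Nop10 (0.030, in a range from -0.72 with 1 library left out). The cause of these changes was not tested.

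Replicate numbers gave no clear sign of pairing: deviations of same-numbered libraries correlated at 0.03, 0.05 and 0.17. MIZ1KO replicates 1 and 3 correlated best with their own number, and MIZ1KO replicate 2 with Control replicate 1 (0.13). With so few libraries this check cannot exclude a pairing. The fit with the replicate number as a block left out Control replicate 4, which has no partner number. It called 1 member (Fbl) and 8 other factors higher, beside 218 of 11143 genes. Rpf1 was no longer called there, and Dkc1 measured 0.0035. The fit without Control replicate 4 and without a block called 0 members and 1 other factor higher, beside 56 of 11143 genes. Rrp9, with 23 to 50 counts in a library, had an SE of 0.49, and Nob1, with 24 to 111, one of 0.46.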
